A study of Rattus norvegicus with 44 samples.

Results

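The replication fork genes described here are 10 rat genes for the sliding clamp, its loader, the leading and lagging strand polymerases, primase, the single-strand binding protein, the flap nuclease and the joining ligase. They are Pcna, Rfc4, Pole, Pole2, Pold1, Pold2, Prim1, Rpa2, Fen1 and Lig1, and they were measured by 11 probe sets whose annotation names exactly 1 of them, among 31042 probe sets tested and 14217 genes that some probe set names alone. Each gene had 1 probe set except Lig1, which had 2. The cells were H4-II-E-C3, an established line derived from a rat liver tumour, exposed for 24 h in serum-free medium to nickel chloride (NiCl2) at 40, 140 or 400 µM, to sodium dichromate (Na2Cr2O7, called chromium here) at 0.275, 1 or 10 µM, or to cadmium chloride (CdCl2) at 0.2, 0.55 or 1.2 µM. The unexposed controls received the same medium without metal. There were 4 biological replicates of each condition and 2 control arrays per replicate, giving 44 arrays, and the study chose the lowest concentration of each metal for no observed cell death and the other concentrations for rising cell death. The design asks which responses the metals share and which belong to 1 metal, and the cells are a single transformed line, so the values describe that line alone.

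The replication fork is the place where the DNA double helix is opened and copied. Primase lays a short RNA primer, the clamp loader sets the ring-shaped clamp PCNA around the primed DNA, and the clamp holds DNA polymerase epsilon on the leading strand and DNA polymerase delta on the lagging strand. Single-stranded DNA is covered by replication protein A, flaps between lagging strand fragments are cut by the nuclease FEN1, and DNA ligase 1 seals the remaining nicks. The genes are transcribed most strongly as cells enter the DNA synthesis phase, and several of the proteins also fill gaps in excision repair. An array of a whole culture measures the RNA of all its cells together, so more cells in that phase and more RNA per cell cannot be told apart.

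The condition of each array was taken from the order of the sample titles, with the 4 titles marked as repeated microarrays moved to the end of the list. That order, and not the labels, gives back the study's own condition means, which were computed from these arrays and are not independent of them. It gave 22 of the 44 arrays the condition that their own label states and 22 another one. The arrays with another condition numbered 0, 2, 10 and 10 in the labelled replicates 1 to 4. The main chromium and nickel results below are therefore also given on the 22 arrays where order and label state the same condition. These hold 2 arrays of each chromium and nickel exposure, from replicates 1 and 2. They were analysed in 1 fit of all 10 conditions (7 residual degrees of freedom), not in 1 fit per metal. For comparisons with controls the fit thus changed together with the arrays. With the labels as they stand, 0 of the 11 probe sets differed from controls in any exposure by limma's moderated test at a Benjamini-Hochberg adjusted p under 0.05, the threshold for every call below, and 2 had an unadjusted p under that value at 10 µM chromium. At that setting the standard error of the Pcna difference at 10 µM chromium was 0.29, against 0.10 in the order used here.

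Liver genes were abundant, with albumin (Alb) at a mean log2 value over the arrays of 14.52 and transthyretin (Ttr) at 11.57, whereas the leukocyte gene Ptprc and the endothelial gene Pecam1 both lay at 4.61 and the fibroblast gene Col1a2 at 4.24. The other markers of those cell types were higher. The fibroblast genes Acta2, Pdgfrb and Col1a1 lay at 6.46, 5.82 and 5.22 and the leukocyte gene Cd68 at 5.52. Apoa1, a liver apolipoprotein, was low at 5.58, below Acta2 and Pdgfrb. The mean over 7 measured liver markers was 9.72 to 10.03 at 10 µM chromium, against 10.3 to 10.6 in controls and reached down to 8.76 at 400 µM nickel. At 0.2 µM cadmium it was 10.67 to 10.87, above all control arrays. The part of these shifts in the results below was not tested. The difference between the 3′ and 5′ probe sets of Actb, a sign of RNA breakdown, was 0.83 to 1.01 on the chromium 10 µM arrays and 0.84 to 1.01 on the control arrays.

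Because the 10 genes were higher together at 10 µM chromium (values below), the promoters of the clamp and of a clamp loader subunit are shown, as the 250 bases before the start given in RefSeq's table for the GRCr8 assembly, 5′ to 3′ on the strand of the gene. Capitals mark CCAAT or GGGCGG, the letters of the CCAAT box and of the GC box, on either strand (as ATTGG or CCGCCC on the other strand).
Pcna (chr3:139955821-139956070, minus strand): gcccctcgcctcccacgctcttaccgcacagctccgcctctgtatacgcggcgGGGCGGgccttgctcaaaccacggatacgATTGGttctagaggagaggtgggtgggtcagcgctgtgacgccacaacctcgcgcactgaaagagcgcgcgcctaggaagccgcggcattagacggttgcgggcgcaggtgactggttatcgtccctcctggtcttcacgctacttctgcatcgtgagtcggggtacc
Rfc4 (chr11:91254023-91254272, plus strand): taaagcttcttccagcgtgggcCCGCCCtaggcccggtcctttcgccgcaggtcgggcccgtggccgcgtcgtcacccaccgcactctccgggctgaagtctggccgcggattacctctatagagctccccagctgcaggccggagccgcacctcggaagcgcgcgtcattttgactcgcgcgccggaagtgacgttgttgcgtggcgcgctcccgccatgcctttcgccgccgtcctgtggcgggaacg
The Pcna window held GGGCGG at bases -197 to -192 and CCAAT on the opposite strand at -168 to -164, while the Rfc4 window held GGGCGG on the opposite strand at -228 to -223. TTTGAA and the E2F letters (TTT, 2 bases each C or G, then CGC) were also searched on both strands. Neither window held a match to them. All 10 genes had a promoter in the table. On GRCr8 the genes lie at chr3:139951948-139955820 (Pcna), chr11:91254273-91268727 (Rfc4), chr12:52005155-52053761 (Pole), chr6:93410713-93448782 (Pole2), chr1:104161984-104178074 (Pold1), chr14:84962933-84969148 (Pold2), chr7:1031436-1047134 (Prim1), chr5:150260668-150271329 (Rpa2), chr1:216270016-216274873 (Fen1) and chr1:83243043-83281707 (Lig1). The windows of the other 8 genes reach into the span of their gene in the annotation, so no motif count over the 10 genes is given. Over all 33469 windows of the table, CCAAT occurred in 34%, GGGCGG in 30.5%, TTTGAA in 16.2% and the E2F letters in 1.73%. These shares describe exact letters in a window and say nothing of whether a factor binds there.

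**Figure D1:**
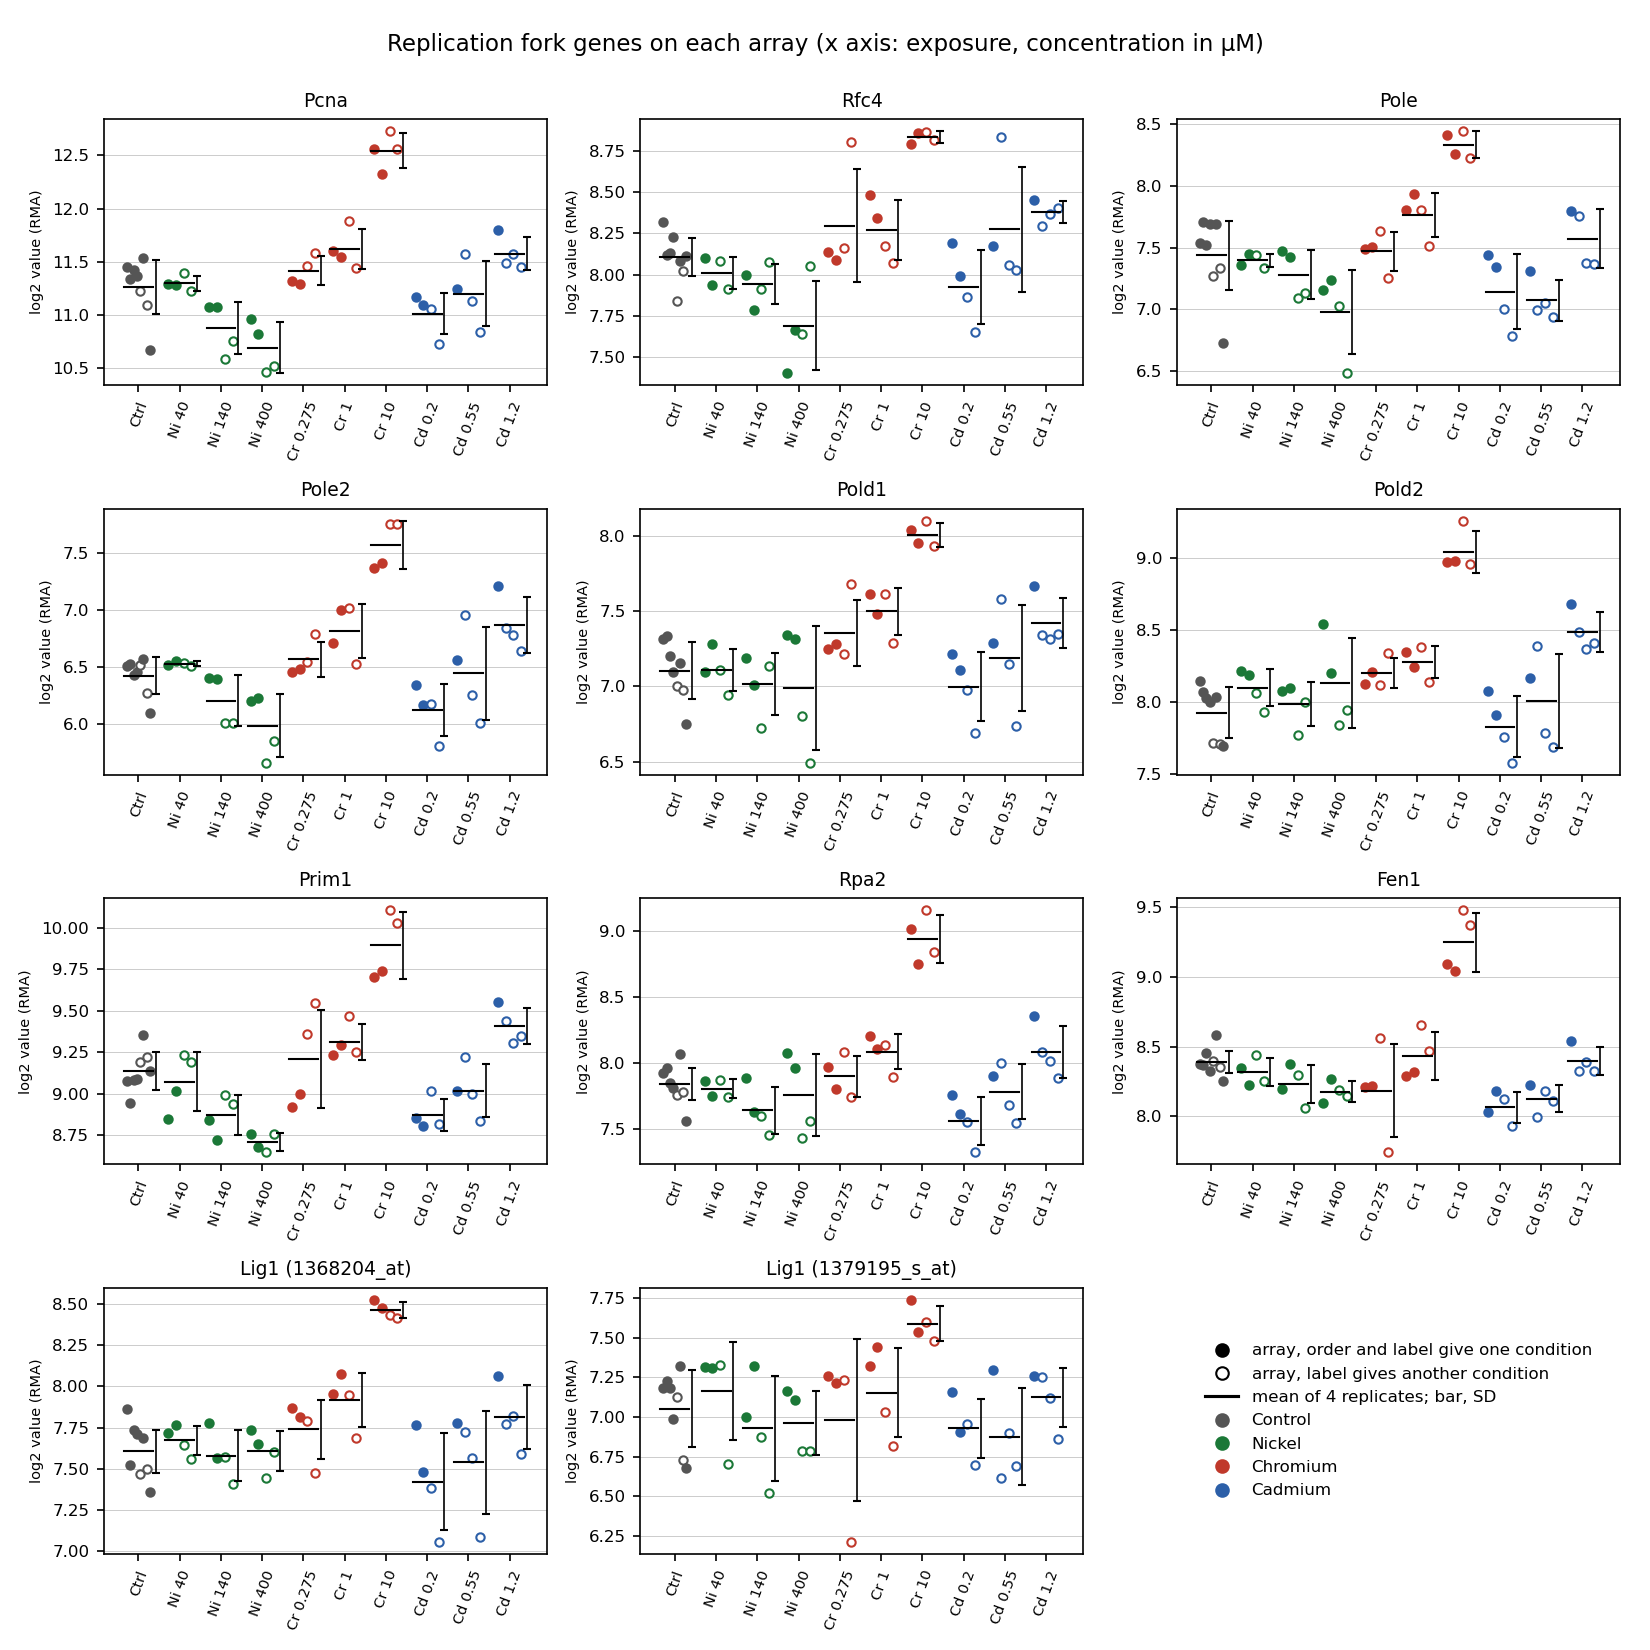
Log2 value (vertical axis, RMA scale) of the 11 probe sets on each array by exposure (horizontal axis, concentrations in µM). Filled points are arrays whose label states the same condition as the order and open points arrays whose label states another; lines are means of 4 replicates with bars of 1 SD, the 2 control arrays of a replicate being averaged first. The 4 chromium 10 µM arrays lie above all 8 control arrays for all 11 probe sets.

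PCNA is the clamp that tethers the polymerases to DNA. Pcna had log2 values of 12.56, 12.33, 12.73 and 12.56 on the 4 arrays of 10 µM chromium, whereas the 8 control arrays ran from 10.67 to 11.54 with a median of 11.35. The groups did not overlap, and the difference of 1.28 ± 0.10 (SE), a 2.43-fold higher level, was the largest of the 11 (95% interval 1.06 to 1.50, adjusted p = 2.57e-07, limma). In nickel at 400 µM the same probe set had values of 10.96, 10.82, 10.47 and 10.52. Although these overlapped the lowest control array, each array lay below both controls of its own replicate, and Pcna fell by 0.57 ± 0.10 on the log2 scale (adjusted p = 6.63e-04). At 1.2 µM cadmium the values were 11.80, 11.49, 11.57 and 11.45. All 4 lay above both controls of their own replicate, and the difference of 0.31 ± 0.08 was higher (adjusted p = 0.013), a call lost without replicate 1 or without replicate 4. The mean level ran in the order chromium 10 µM at 12.54 ± 0.17 (SD, n = 4), chromium 1 µM at 11.62 ± 0.19, cadmium 1.2 µM at 11.58 ± 0.16, chromium 0.275 µM at 11.42 ± 0.14, nickel 40 µM at 11.30 ± 0.07, control at 11.27 ± 0.25, cadmium 0.55 µM at 11.20 ± 0.30, cadmium 0.2 µM at 11.02 ± 0.19, nickel 140 µM at 10.88 ± 0.24 and nickel 400 µM at 10.69 ± 0.24. Below the first place, neighbouring means in that order were closer to each other than the larger of their SDs, except cadmium 1.2 µM over chromium 0.275 µM, 0.1605 apart with a larger SD of 0.1569. The first place stood apart from the second, with 10 µM chromium above 1 µM by 0.92 (adjusted p = 9.72e-06).

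RFC4 is a small subunit of replication factor C, the loader that opens and closes the clamp. Rfc4 had values of 8.79, 8.86, 8.87 and 8.82 at 10 µM chromium, the tightest of the 11 probe sets there, and 7.84 to 8.32 with a median of 8.11 on the control arrays. The level was 1.66-fold higher (0.73 ± 0.13, adjusted p = 5.11e-04), with no overlap. With nickel at 400 µM Rfc4 had 7.40, 7.66, 7.64 and 8.05, and 3 of these 4 arrays lay below both controls of their replicate. It fell by 0.42 ± 0.11 (adjusted p = 0.013), and that call was lost without replicate 1 or without replicate 2, with adjusted p up to 0.117 over the alternatives. At 1.2 µM cadmium the difference of 0.27 ± 0.12 did not pass (adjusted p = 0.121), though all 4 arrays lay above both controls of their replicate.

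Pole encodes the catalytic subunit of polymerase epsilon and Pole2 its second subunit. Pole had values of 8.41, 8.26, 8.44 and 8.23 at 10 µM chromium and 6.73 to 7.71 with a median of 7.53 on the control arrays, a 1.86-fold higher level (0.90 ± 0.09, adjusted p = 1.34e-06). Pole2 had 7.37, 7.42, 7.75 and 7.76 against 6.09 to 6.57 with a median of 6.48, a 2.22-fold higher level (1.15 ± 0.12, adjusted p = 4.03e-06). Neither gene overlapped its controls. Under 400 µM nickel Pole stood at 7.16, 7.24, 7.03 and 6.48 and Pole2 at 6.20, 6.23, 5.66 and 5.85. Every one of those arrays lay below both controls of its replicate. Pole fell by 0.46 ± 0.10 (adjusted p = 0.00437), a call lost without the replicate term, and Pole2 fell by 0.44 ± 0.10 (adjusted p = 0.00576), a call lost without replicate 3, which had the greatest drop of Pole2. In cadmium Pole2 passed at the high concentration and Pole at the middle one. At 1.2 µM Pole2 had 7.21, 6.84, 6.78 and 6.64, all above every control array. Of all probe sets 8.03% lay above all control arrays there. Pole2 was higher by 0.45 ± 0.11 (adjusted p = 0.00942), a call lost without replicate 1 or without replicate 4. Pole had 7.80, 7.76, 7.37 and 7.36 and a difference of 0.14 ± 0.09 (adjusted p = 0.291). At 0.55 µM cadmium Pole fell by 0.36 ± 0.09 (adjusted p = 0.0265), with values of 7.31, 6.99, 7.05 and 6.93, while Pole2 differed by 0.02 ± 0.11. That call of Pole was lost without replicate 1, 2 or 3, and the difference between the subunits was itself not tested.

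Pold1 encodes the catalytic subunit of polymerase delta and Pold2 the subunit that joins it to the remaining ones. In chromium at 10 µM Pold1 had values of 8.04, 7.95, 8.10 and 7.93, against 6.75 to 7.34 with a median of 7.13 on the control arrays. Pold2 had 8.98, 8.98, 9.26 and 8.96, against 7.69 to 8.15 with a median of 8.01. Both groups stood clear of their controls, Pold1 by 0.90 ± 0.12 (1.86-fold, adjusted p = 2.35e-05) and Pold2 by 1.12 ± 0.10 (2.18-fold, adjusted p = 4.84e-07). Neither subunit passed the test at 400 µM nickel, and their difference from Pole and Pole2 there was not tested. Pold1 had 7.34, 7.31, 6.81 and 6.50, with 2 replicates above and 2 below their own controls (-0.12 ± 0.13, 95% interval -0.38 to 0.15). The 2 above were replicates 1 and 2, whose labels state the same condition as the order, and the labels of the 2 below state another one. Pold2 had 8.54, 8.20, 7.84 and 7.94, and its difference of 0.21 ± 0.09 was the only one of the 11 with a positive interval in nickel (0.02 to 0.40, adjusted p = 0.118). The Pold2 values of 8.68, 8.49, 8.37 and 8.41 at 1.2 µM cadmium lay above all control arrays, as did 8.03% of all probe sets. Pold2 was the member with the largest difference there (0.56 ± 0.09, 1.48-fold, adjusted p = 1.45e-04). That call held in all 14 alternatives other than the labels as they stand. Pold1 was higher by 0.31 ± 0.10 in the same cells (adjusted p = 0.0307), with values of 7.67, 7.34, 7.31 and 7.35. Its highest array was that of replicate 1, and the call was lost without replicate 1, 3 or 4.

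PRIM1 is the catalytic subunit of primase. Prim1 had values of 9.70, 9.74, 10.10 and 10.03 at 10 µM chromium and 8.95 to 9.36 with a median of 9.11 on the control arrays, a 1.69-fold higher level (0.76 ± 0.08, adjusted p = 5.84e-06). In nickel at 400 µM its values of 8.76, 8.68, 8.65 and 8.76 lay below all 8 control arrays, the only member for which this was so. Of all probe sets 4.06% lay below all control arrays there. Prim1 fell by 0.43 ± 0.08 there (adjusted p = 7.85e-04), and the call held in all 14 alternatives other than the labels as they stand. At 1.2 µM cadmium it had 9.55, 9.44, 9.31 and 9.35 and was higher by 0.27 ± 0.08 (adjusted p = 0.0287), a call lost without replicate 1 or without replicate 4.

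RPA2 is the middle subunit of replication protein A. Rpa2 had values of 9.02, 8.75, 9.16 and 8.84 at 10 µM chromium and 7.56 to 8.07 with a median of 7.83 on the control arrays. The difference of 1.10 ± 0.07 (2.14-fold) had the lowest adjusted p of the 11, 3.36e-08. With nickel at 400 µM the replicates pulled apart. The values were 8.08 and 7.96 in replicates 1 and 2, above both own controls, and 7.43 and 7.56 in replicates 3 and 4, below both, so that the difference was -0.08 ± 0.10 (95% interval -0.29 to 0.13). The labels of replicates 1 and 2 state the same condition as the order and those of replicates 3 and 4 another one. The part of this in the split was not tested. At 1.2 µM cadmium Rpa2 had 8.36, 8.08, 8.01 and 7.89 and was higher by 0.24 ± 0.07 (adjusted p = 0.0241), a call lost without replicate 1, 3 or 4.

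FEN1 cuts the flaps left between lagging strand fragments. Fen1 had values of 9.10, 9.05, 9.48 and 9.37 at 10 µM chromium and 8.26 to 8.59 with a median of 8.37 on the control arrays, a 1.81-fold higher level (0.86 ± 0.11, adjusted p = 2.28e-05). The lower chromium concentrations gave no such shift, at 8.21, 8.22, 8.56 and 7.74 for 0.275 µM and 8.29, 8.32, 8.66 and 8.47 for 1 µM. At 400 µM nickel Fen1 had 8.09, 8.27, 8.19 and 8.15, each below both own controls. It fell by 0.22 ± 0.07, close to the threshold (adjusted p = 0.0435), and the call was lost without any 1 of the 4 replicates. In cadmium its values were 8.03, 8.18, 8.13 and 7.93 at 0.2 µM and 8.22, 7.997, 8.18 and 8.11 at 0.55 µM, all below all 8 control arrays, then 8.54, 8.33, 8.39 and 8.33 at 1.2 µM, within them. Of all probe sets 0.454% lay below all control arrays at 0.2 µM and 1.49% at 0.55 µM. The fall at 0.55 µM was 0.26 ± 0.07 (adjusted p = 0.0438, lost without any 1 replicate), while the difference at 0.2 µM of -0.33 ± 0.07 did not pass (adjusted p = 0.0874).

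LIG1 is the ligase that seals lagging strand fragments. Its 2 probe sets disagreed in size. With 10 µM chromium the first, whose identifier ends in _at, had values of 8.52, 8.47, 8.43 and 8.42, against 7.36 to 7.86 with a median of 7.60 on the control arrays (0.86 ± 0.07, 1.81-fold, adjusted p = 4.28e-07). The other, which ends in _s_at, had 7.74, 7.54, 7.60 and 7.48, against 6.68 to 7.32 with a median of 7.15 (0.53 ± 0.13, 1.45-fold, adjusted p = 0.00482). Both stood above all control arrays. The ending of the second marks probes that can match more than 1 transcript, its call was lost without the replicate term (adjusted p = 0.0818, with 9.87e-05 to 0.0818 over the alternatives), and it spread most among replicates, with an SD of 0.51 at 0.275 µM chromium. Lig1 stayed near the control level at 400 µM nickel, where the first probe set had 7.73, 7.65, 7.45 and 7.60 and a difference of 0.00 ± 0.07 (95% interval -0.15 to 0.16). At 1.2 µM cadmium the first probe set had 8.06, 7.77, 7.82 and 7.59, each above both own controls, and a difference of 0.21 ± 0.08 that did not pass (adjusted p = 0.0841).

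Counted together at 10 µM chromium, 11 of 11 probe sets were higher and 0 lower than in controls. Of all probe sets tested 11.9% were higher and 10% lower. The genes were named together in view of earlier results of these data, so the count is not independent evidence of its direction. The median difference was 0.90 against -0.0038 for all probe sets, and the range ran from 0.53 to 1.28. Each of the 44 values, 11 probe sets in 4 replicates, was above both control arrays of its replicate, and 11 of 11 probe sets lay above all 8 control arrays, as did 9.02% of all probe sets. On the arrays where order and label state the same condition, 11 of 11 were also higher, with differences of 1.05 for Pcna, 0.99 for Rpa2 and 0.49 for the second Lig1 probe set. With the labels as they stand the differences were 0.58, 0.48 and 0.14, and none passed.

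The study's own thresholds, an F test over the 3 concentrations at a false discovery rate of at most 0.001 with at least a 1.8-fold difference in some concentration, were passed by 8 of the 11 probe sets in chromium, all higher, against 1.48% of all probe sets. The 3 outside them were Prim1, whose 1.69-fold difference was too small, and Rfc4 and the second Lig1 probe set, which were too small and had F test adjusted p of 0.00241 and 0.00658. Fen1 and the first Lig1 probe set, each at 1.81-fold, lay just inside. The count of 8 became 5 without replicate 3, 4 without replicate 4 and 4 on the arrays where order and label state the same condition. In nickel and in cadmium 0 of 11 passed those thresholds, as against 1.19% and 0.992% of all probe sets. By the F test 6 had an unadjusted p under 0.05 in nickel and 10 in cadmium. The matching counts over all probe sets are not given, so these 2 counts have no background beside them. Pcna was the member with the lowest F test adjusted p in nickel (7.14e-04) and Pold2 in cadmium (1.12e-04).

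**Figure D2:**
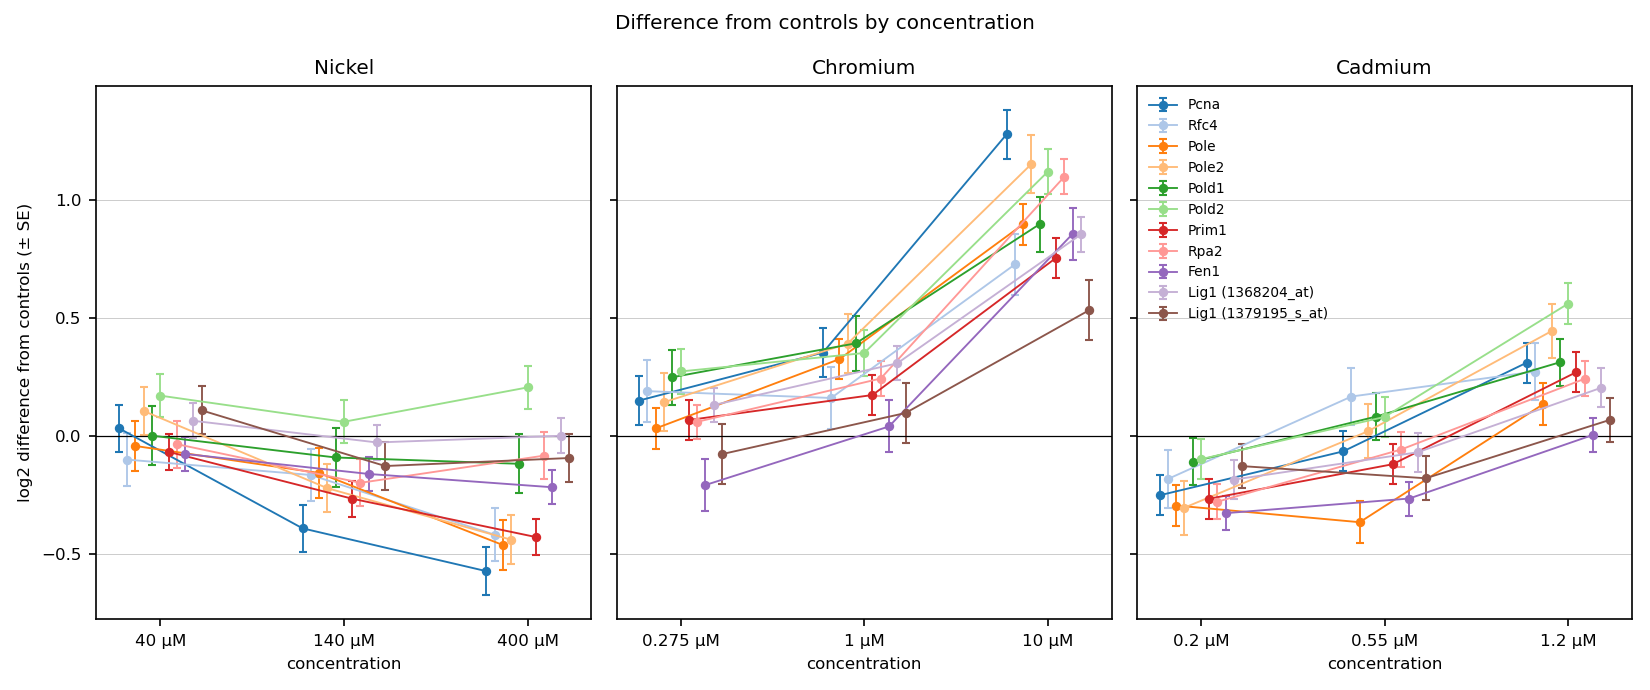
Log2 difference from controls (vertical axis, ± SE) of the 11 probe sets at the 3 concentrations (horizontal axis) of nickel, chromium and cadmium, from 1 limma fit per metal over 4 replicates. In chromium the medians run 0.13, 0.31 and 0.90, in cadmium -0.25, -0.06 and 0.27, and in nickel 0.00, -0.16 and -0.22.

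The lower chromium concentrations gave no member past the threshold. At 0.275 µM 0 of 11 passed (0% of all probe sets), with a median of 0.13. Pold1 and Pold2 were the 2 with an unadjusted p under 0.05, against 2383 of all 31042 probe sets. At 1 µM 0 of 11 passed (0.00322% of all, a single probe set). All 11 differences were above 0 there, with a median of 0.31, the largest being Pold1 at 0.39 ± 0.12 and Pole2 at 0.39 ± 0.12. Of the 11, 7 had an unadjusted p under 0.05, against 1904 of all 31042 probe sets. At 1 µM, 41 of the 44 values lay above the mean of the own controls. These values come from 4 replicates and share control arrays, so they are not independent. Their matching share over all probe sets is not given. Between 1 and 10 µM all 11 rose, where 19.1% of all probe sets differed in either direction, and the steps ran from 0.44 for the second Lig1 probe set to 0.92 for Pcna. Fen1 took nearly its whole difference in that step, with 0.04 ± 0.11 at 1 µM and 0.86 ± 0.11 at 10 µM.

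In nickel 6 of 11 probe sets were lower at 400 µM and 0 higher, where 9.25% of all probe sets were lower and 12.5% higher. Pcna, Pole, Pole2, Prim1, Rfc4 and Fen1 fell. Rpa2, Pold1, Pold2 and both Lig1 probe sets did not pass. The median difference was -0.22 against -0.02 for all probe sets. On the arrays where order and label state the same condition 4 were lower (Pcna, Prim1, Rfc4 and Pole) and 1, Pold2, higher by 0.31. At 140 µM 0 of 11 passed (1.17% of all probe sets), with 10 of 11 differences below 0 and Pcna at -0.39 ± 0.10 (adjusted p = 0.0759). Before adjustment 4 of the 11 were under 0.05, against 4023 of all 31042 probe sets. At 40 µM 0 of 11 passed (0% of all), 0 had an unadjusted p under 0.05 (1088 of all 31042), and the differences ran from -0.10 to 0.17. Between 140 and 400 µM 0 of 11 differed (10.1% of all in either direction), Pole at -0.30 ± 0.10 having the lowest adjusted p, 0.0738. In that step 3 of the 11 had an unadjusted p under 0.05, against 7611 of all 31042 probe sets.

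In cadmium the differences ran from below to above 0 with concentration. At 0.2 µM 0 of 11 passed (0.229% of all probe sets). All 11 differences were below 0, and 43 of 44 values lay below the mean of the own controls. Those values come from 4 replicates and share their control arrays, so they are not independent. The matching share of all probe sets is not given. Before adjustment 7 of the 11 had a p under 0.05, against 2357 of all 31042 probe sets. The liver marker mean was above all control arrays in the same exposure, and its part was not tested. Without the 4 repeated arrays 5 of the 11 passed there, all lower. That setting drops no array of 0.2 µM cadmium and no control array. From the cadmium fit it drops 1 array of 0.55 µM, with 8 residual degrees of freedom left. The share of all probe sets passing in that setting is not given. At 0.55 µM 2 of 11 passed, Pole and Fen1, both lower, against 5.25% of all in either direction, and that count was 0 without replicate 1, 2 or 3 and 1 without replicate 4. At 1.2 µM 6 of 11 were higher and 0 lower, where 12.8% of all probe sets were higher and 9.08% lower. These were Pold2, Pole2, Pold1, Pcna, Prim1 and Rpa2, with a median over the 11 of 0.27 against -0.04 for all probe sets. The count was 1 without replicate 1, 8 without replicate 2, 4 without replicate 3 and 1 without replicate 4. It was also 1 without the replicate term and 2 in a single fit of all conditions, and Pold2 was called in each of these settings. Between 0.55 and 1.2 µM 8 of 11 rose (12.3% of all in either direction), led by Pole at 0.50 ± 0.09 and Pold2 at 0.48 ± 0.09, and that count was 2 without replicate 1, 10 without replicate 2, 3 without replicate 3 and 2 without replicate 4. The arrays where order and label state the same condition hold a single array of 1.2 µM, that of replicate 1, so they give no replicate check of this exposure.

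**Figure D3:**
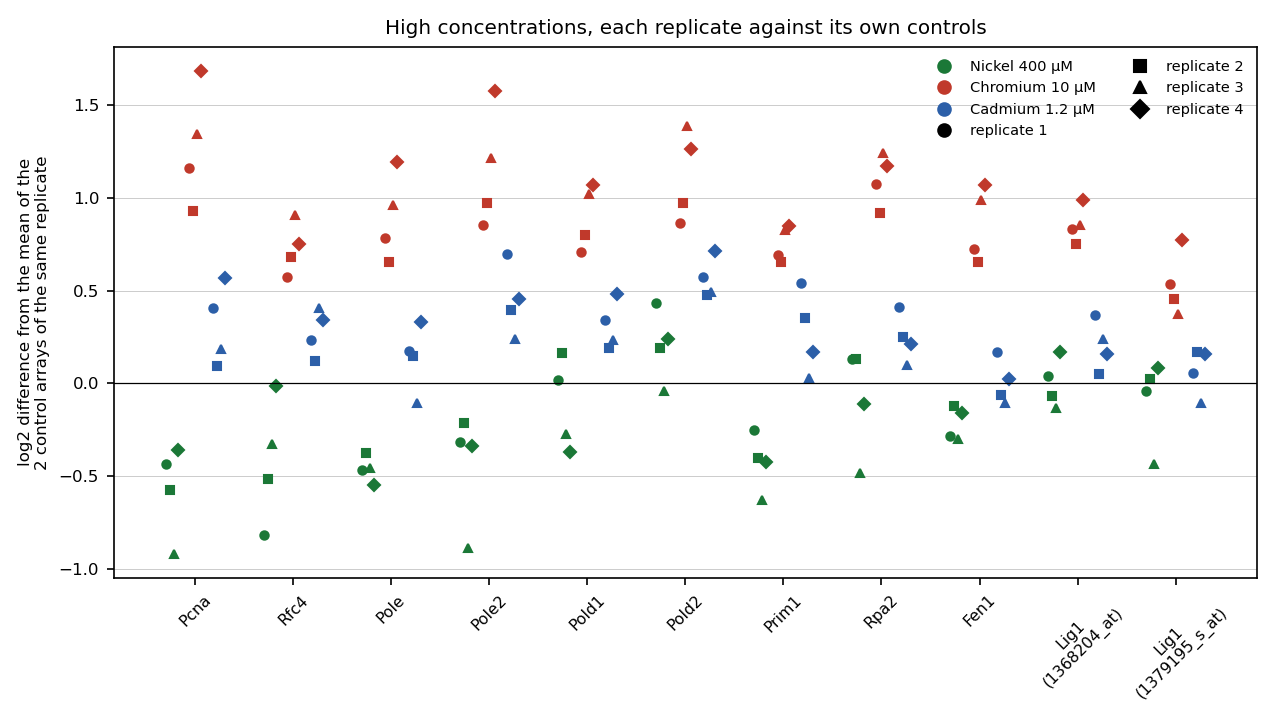
Log2 difference of each replicate from the mean of the 2 control arrays of the same replicate (vertical axis) for the 11 probe sets (horizontal axis) at the high concentration of each metal. All 44 chromium points lie above 0, from 0.38 to 1.68, while 33 of 44 nickel points lie below 0 and 40 of 44 cadmium points above it. The 44 points of a metal come from 4 replicates and are not independent.

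The high concentrations were then set against each other in 1 fit of all 10 conditions. At 10 µM chromium 11 of 11 probe sets were higher than at 400 µM nickel, where 12.2% of all probe sets were higher and 12.5% lower. The difference ran from 0.63 ± 0.12 for the second Lig1 probe set to 1.85 ± 0.12 for Pcna, a 3.60-fold ratio (adjusted p = 2.15e-14). On the arrays where order and label state the same condition that count was 11 as well, and with the labels as they stand it was 1. At 10 µM chromium 11 of 11 were also higher than at 1.2 µM cadmium, where 12% of all were higher and 13.1% lower, from 0.45 ± 0.15 for Rfc4 to 0.97 ± 0.12 for Pcna. With the arrays where order and label state the same condition, contrasts with cadmium 1.2 µM rest on a single array of it. At 400 µM nickel 8 of 11 were lower than at 1.2 µM cadmium, where 13.2% of all were lower and 11.8% higher, the largest being Pole2 (-0.88 ± 0.15) and Pcna (-0.88 ± 0.12), and the count was 5 without replicate 3 and 5 without the replicate term. Lig1 and Fen1 did not pass there, with intervals of -0.37 to -0.03 for the first Lig1 probe set, -0.41 to 0.09 for the other and -0.42 to -0.02 for Fen1. Since the concentrations of the metals were set by cell death, these differences compare the exposures as they were run, not equal amounts of metal.

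Over all 10 conditions the mean level was highest at 10 µM chromium for 11 of 11 probe sets. The second place went to chromium 1 µM for 6, to cadmium 1.2 µM for 4 and to nickel 40 µM for the second Lig1 probe set. The lowest place went to nickel 400 µM for 6 (Pcna, Rfc4, Pole, Pole2, Pold1 and Prim1), to cadmium 0.2 µM for 4 (Pold2, Rpa2, Fen1 and the first Lig1 probe set) and to cadmium 0.55 µM for the second Lig1 probe set. The gap between the first and second places exceeded the larger of their SDs for 11 of 11 probe sets, and of the 88 gaps farther down 4 did, those of Pold2 between cadmium 1.2 µM and chromium 1 µM, of Pcna and Pole2 below the third place, and of Prim1 above nickel 400 µM. Across the 40 condition and replicate values, with each replicate's mean taken out, the 55 pairs of probe sets had correlations (Pearson's r) from 0.34 to 0.97 with a median of 0.86. The highest was that of Pcna with Pole2 and the lowest that of Rfc4 with the second Lig1 probe set. The points of a pair share arrays and conditions, so the values are a description. The genes outside the fork lists whose profile was most like the mean of the 11 were Nup85, a nuclear pore subunit (r = 0.98 over the same 40 values), Dtl, a substrate adaptor of a ubiquitin ligase that works with PCNA (0.98), Mcm3, a subunit of the replicative helicase (0.98), Exo1, an exonuclease of mismatch repair (0.98), and Ccne1, cyclin E (0.97). Their differences at 10 µM chromium ran from 0.91 for Nup85 to 1.44 for Dtl, given as a description, since the choice by profile used the same arrays.

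Other genes of the fork, from helicase factors to chromatin assembly, were listed for comparison. The Mcm subunits of the helicase and the licensing genes were left out, so Mcm3 above was outside the list by that choice. Of 41 listed genes 37 were measured, by 51 probe sets. At 10 µM chromium 34 of these were higher and 1 lower, with a median of 0.51, where 11.9% of all probe sets were higher and 10% lower. At 400 µM nickel 26 were lower and 0 higher (median -0.27), where 9.25% of all were lower and 12.5% higher. The cadmium counts at 1.2 µM were nearer to the background, with 10 higher and 2 lower (median 0.06), where 12.8% of all were higher and 9.08% lower. The study's thresholds in chromium were passed by Pola2, the second subunit of the primase-associated polymerase alpha (1.18 ± 0.11), by Clspn, the checkpoint mediator Claspin (1.11 ± 0.09), by Chaf1a (0.95 ± 0.08) and Chaf1b (1.07 ± 0.10), subunits of the chromatin assembly factor that binds PCNA, and by Atad5, which unloads PCNA (1.17 ± 0.11 and 1.07 ± 0.10 by 2 of its 3 probe sets). Gins3, of the helicase complex (0.99 ± 0.08), Donson (0.93 ± 0.10), the PCNA-binding factor Pclaf (1.05 ± 0.12) and Mcm10 (0.85 ± 0.11) passed as well. Pclaf was the only fork gene past those thresholds in nickel, at -1.10 ± 0.11.

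The partner subunits of the 10 genes, picked out of that list after their values were seen, were not all alike. In chromium 10 µM the clamp loader subunits Rfc3 (0.83 ± 0.09), Rfc2 (0.79 ± 0.14) and Rfc5 (0.77 ± 0.08 and 0.53 ± 0.07) were higher together with Rfc4, whereas none of the 3 probe sets of the large subunit Rfc1 passed, with differences from 0.09 to 0.20. Rpa1 (0.84 ± 0.07) and Rpa3 (0.40 ± 0.08) were higher, as Rpa2 was, and both fell at 400 µM nickel (-0.60 ± 0.09 and -0.47 ± 0.08), where Rpa2 did not pass. Prim2, the other primase subunit, was higher by 0.49 ± 0.07, while Pola1, the catalytic subunit of polymerase alpha, had 0.11 ± 0.10 (adjusted p = 0.51). In polymerase delta, Pold3 was higher (0.41 ± 0.08 and 0.32 ± 0.07), but Pold4, the smallest subunit, fell by 0.76 ± 0.10 (adjusted p = 2.8e-05) and was the 1 fork probe set called lower. At 1.2 µM cadmium Pold4 was higher by 0.41 ± 0.09 (adjusted p = 0.0023). In polymerase epsilon, Pole4 was higher by 0.19 ± 0.06. Top2a, a topoisomerase that untangles sister chromatids, also named after its values were seen, did not pass in chromium (0.12 ± 0.11 and 0.18 ± 0.08) and fell in nickel (-0.66 ± 0.11 and -0.49 ± 0.09) and in cadmium (-0.41 ± 0.12 and -0.30 ± 0.08).

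DNA polymerases, ligases and partners that act outside the fork were listed as well. Of 17 listed genes 13 were measured, by 18 probe sets, and at 10 µM chromium 6 of these were higher and 2 lower (11.9% and 10% of all probe sets), with a median of 0.07 against 0.90 for the 11 probe sets of the fork genes. The genes named next were chosen after their values were seen. Rev1 and Polh, polymerases that copy past damaged bases, and Lig4, the ligase of end joining, were among those higher (0.51 ± 0.08, 0.49 ± 0.12 and 0.61 ± 0.09, the first and last by the larger of 2 probe sets), and Xrcc1 (-0.46 ± 0.09) and Lig3 (-0.32 ± 0.11 by 1 of 2 probe sets), partners in single-strand break repair, were lower. At 400 µM nickel 2 were higher and 3 lower (12.5% and 9.25% of all probe sets), and at 1.2 µM cadmium 5 were higher and 1 lower (12.8% and 9.08% of all). Mad2l2, a subunit of polymerase zeta, was the only gene of that list past the study's thresholds, in cadmium, at 0.99 ± 0.11. The difference between the lists was not tested.

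**Figure D4:**
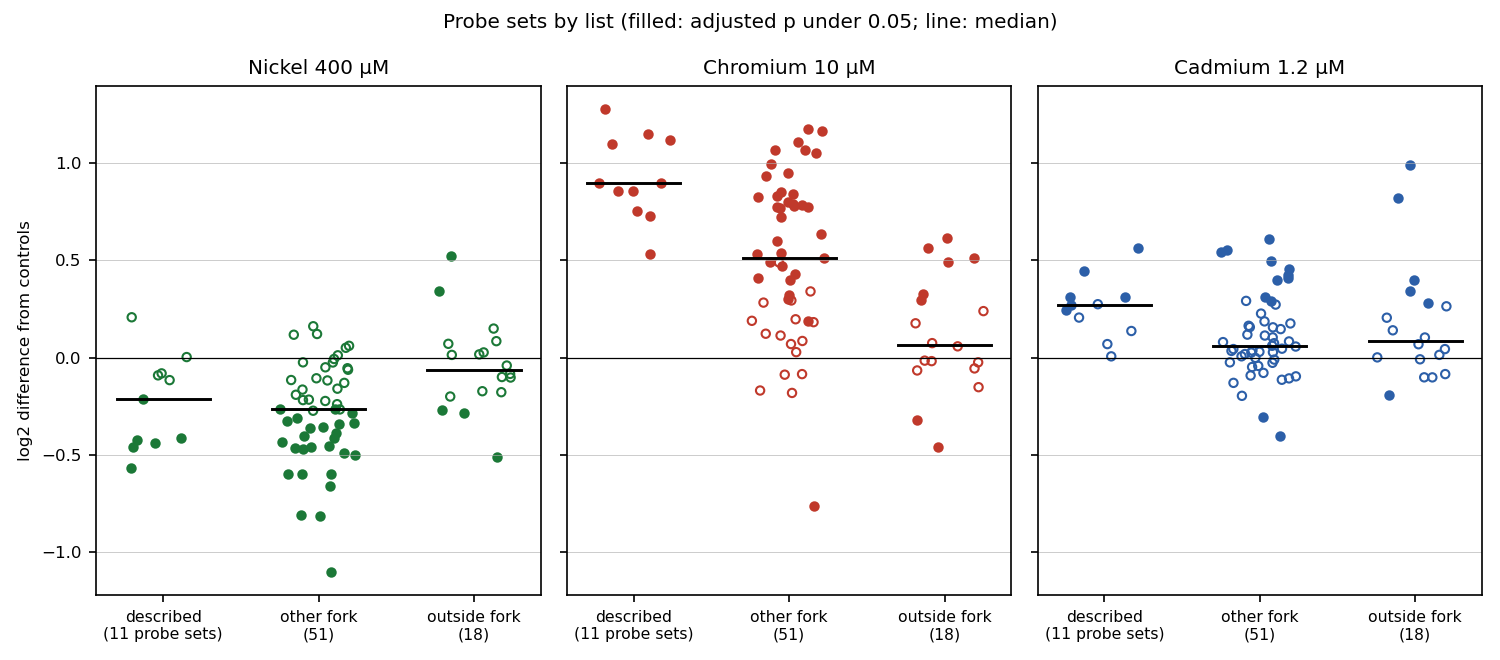
Log2 difference from controls (vertical axis) at the high concentration of each metal for the 11 probe sets described, 51 probe sets of other fork genes and 18 of polymerases, ligases and partners outside the fork. Filled points have an adjusted p under 0.05 and lines are medians, which in chromium are 0.90, 0.51 and 0.07.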

How the data were processed

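RNA of the cultures was hybridised to 44 Affymetrix GeneChip rat genome arrays. The authors computed the deposited log2 values, 1 per probe set and array, by robust multi-array averaging (RMA) in Partek, and the methods name experimental and processing dates as a batch. These values were used as deposited. Of 31099 probe sets 57 are array controls and 31042 were tested, of which 20826 carry 1 gene symbol, 436 several and 9780 none. No filter on low values was applied.

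Conditions followed the order of the titles as the report describes. Over the 992 probe sets of a supplementary table, that order matched the authors' condition differences within 7.5e-06 on the log2 scale, whereas the labels differed by 0.164 at the median and 4.32 at most. The order settles conditions, not replicate numbers.

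limma 3.58.1 in R 4.3.3 was fitted to each metal with its controls (eBayes with an intensity trend, replicate as a block in place of the methods' batch, whose link to replicate numbers is not given in the sources used here, the 2 control arrays of a replicate averaged, 9 residual degrees of freedom), and to all 10 conditions for contrasts between metals (27). P-values were adjusted by Benjamini-Hochberg over all 31042 probe sets. Samples with the same replicate number deviated together in 168 of 180 pairs (r over 0.1, median 0.384, lowest -0.237). Whether the control arrays came from separate cultures is not given in the sources used here. The fit per metal was tested on values simulated after the chromium arrays and their controls, for single contrasts only. The F test and the fit of all 10 conditions were not tested that way. Precision rests on 4 replicates.

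The members and lists were chosen with earlier results of these data known. Named genes were all 10 members, genes of the lists past the methods' thresholds, and the 5 profiles most like the members' mean. Further list genes were named after their values were seen, as the report states at each place. Of the lists, Pole3, Dna2, Gins2 and the older name Supt16, and Poli, Poln, Polq and Primpol had no probe set naming them alone and were not analysed here. Promoters came from RefSeq's table for GRCr8.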

Additional observations from a re-analysis of the deposited data

Results flagged for a closer look

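In 7 of 110 groups of arrays (11 probe sets in 10 conditions) 1 array lay far from the others by Dixon's test, where chance gives about 1 in 20, and no explanation was tested. Values are the gap to the nearest array as a share of the group's range. The array of chromium 0.275 µM replicate 4, whose title marks a repeated microarray, stood out for the second Lig1 probe set (6.21 against 7.21 to 7.26, share 0.958), for Pold1 (7.68 against 7.22 to 7.28, 0.854) and for Rfc4 (8.81 against 8.09 to 8.16, 0.895). The second Lig1 probe set was also low in nickel 40 µM replicate 4 (6.70 against 7.31 to 7.33, 0.964). Dixon's test takes no account of replicate, and the 2 control arrays of replicate 4 had 6.73 and 6.68 for that probe set. Pole was low on 1 control array of replicate 4 (6.73 against 7.27 to 7.71, 0.557). Pold1 was high in cadmium 1.2 µM replicate 1 (7.67 against 7.31 to 7.35, 0.904), and Pold2 in chromium 10 µM replicate 3 (9.26 against 8.96 to 8.98, 0.927).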

How the results depend on the processing

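Of 74 calls on single probe sets, the 14 alternatives other than the labels as they stand kept 690 of 796 recomputed calls and lost 106, with no change of direction. At 10 µM chromium 153 of 154 were kept. Over these alternatives 4 to 6 were lower at nickel 400 µM, 10 to 11 higher at chromium 10 µM and 9 to 11 in the chromium step from the middle to the high concentration. Counts of the 11 probe sets that moved by over 1.5 times follow. With the labels as they stand 0 were called at nickel 400 µM, at chromium 10 µM, by the methods' thresholds in chromium, at cadmium 0.55 and 1.2 µM, in the chromium and cadmium steps from the middle to the high concentration, between chromium and cadmium and between nickel and cadmium, and 1 between chromium and nickel. These steps then changed sign for Fen1 (-0.012 in cadmium, -0.037 in chromium), Lig1 (-0.12 in cadmium, -0.094 in chromium by the second probe set), Pold1 (-0.00026 in chromium), Pold2 (-0.13 in cadmium, -0.041 in chromium), Pole (-0.22 in chromium), Pole2 (-0.049 in chromium), Prim1 (-0.073 in chromium) and Rpa2 (-0.0077 in chromium). On the arrays where order and label state the same condition, 1 was lower at nickel 140 µM, 1 higher at 400 µM, 2 higher and 3 lower in the nickel step, 0 lower at cadmium 0.55 µM, 4 passed the methods' thresholds in chromium and 7 were higher in chromium than in cadmium, with cadmium 0.55 and 1.2 µM at 1 array each, assumed to vary like the other groups. Without the replicate block 0 were lower at cadmium 0.55 µM, 1 was higher at 1.2 µM, 1 in the cadmium step, and 5 were lower in nickel than in cadmium. With 1 replicate left out, the counts ran from 4 to 7 by the methods' thresholds in chromium, 0 to 1 lower at cadmium 0.2 µM, 0 to 1 at 0.55 µM, 1 to 8 higher at 1.2 µM, 2 to 10 in the cadmium step and 5 to 8 lower in nickel than in cadmium. With the Control 1 arrays alone 1 was lower at nickel 140 µM, and with the Control 2 arrays alone 0 at cadmium 0.55 µM. With control arrays as separate samples 2 were lower at nickel 140 µM, 1 higher at 400 µM and 1 lower at cadmium 0.2 µM. With array medians subtracted 1 was lower at cadmium 0.55 µM. Without the 4 repeated arrays 1 was lower in the nickel step, 1 higher at chromium 1 µM, 5 lower at cadmium 0.2 µM and 1 at 0.55 µM. In 1 fit of all conditions 1 was lower in the nickel step, 1 at cadmium 0.55 µM and 2 higher at 1.2 µM. The cause of these changes was not tested.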
